A study of Mus musculus with 4 samples.

Results

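Genes of cholesterol and fatty acid synthesis were compared between CD8 T cells sorted from mouse spleen with and without Ly49 receptors. A list of 31 genes was taken as the pathway, and each gene was read by the probe set that named it alone and had the highest mean over the arrays. This gave 30 genes out of 18193 measured. Acat2 was not analysed here. Both groups came from wild-type B6 mice with no treatment given in the labels. The Ly49+ group, which the labels call CD8+ Treg, was sorted as CD44+CD122+Ly49+ cells. The Ly49- cells were CD44+CD122+Ly49- and are described as conventional memory cells. Each group had 2 arrays, 4 in all. Age, sex and the number of animals behind an array are not given in the sources used here, so p-values measure only how these samples spread, and that spread may be technical.

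Cholesterol is built from acetyl-CoA through mevalonate, isoprenoid units, squalene and lanosterol, and fatty acids are built from the same acetyl-CoA through malonyl-CoA. The genes of both routes are switched on by the SREBP transcription factors, encoded by Srebf1 and Srebf2, which Scap escorts out of the endoplasmic reticulum when sterols are scarce and which the Insig proteins hold back when sterols are plentiful. Excess sterol instead activates the LXR receptors, which raise the efflux pumps Abca1 and Abcg1. In T cells this program is known to be raised on activation and growth, when new membrane is needed.

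Array medians lay between 188.5 and 190.4, and any pair of arrays correlated at 0.996 to 0.998 over the probe sets (Pearson, log2 scale). For Actb, the 3' probe set read 1.26 and 1.29 times the 5' one in Ly49+ samples, and 1.37 and 1.34 times in Ly49- samples. Ly49- replicate 1 stood apart in the first BioB spike-in probe set, at 702 against 2750 to 3084 on the other arrays, while the second BioB probe set read 2833 to 3111 on all 4. T-cell and sort markers had similar summed intensities, 144558 to 145166 in Ly49+ against 143011 to 144484 in Ly49- samples, and none of the 9 passed limma's test (1 at an unadjusted p under 0.05). All 30 lipid genes were read above the Bacillus subtilis control probe sets, whose highest mean intensity of 65.4 was taken as background.

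In Ly49+ cells 3 sterol synthesis enzymes were lower, by 1.29- to 1.40-fold, and the efflux pump Abca1 was 1.21-fold higher, while no fatty acid synthesis gene passed the test. Of the 30 genes, 3 fell (Idi1, Cyp51 and Mvd), 1 rose (Abca1) and 26 did not pass the test at an adjusted p under 0.05. Over all 18193 genes, 2.07% were called lower and 1.93% higher, 4% in either direction. Among the 11534 genes with a mean intensity above 100, which all 30 had, these shares were 3.16%, 2.75% and 5.9%. The groups did not overlap, with both Ly49+ arrays the lower, in 16 of the 30 genes, against 35.2% of all genes and 41.8% of those with a mean intensity above 100. With both Ly49+ arrays the higher, there were 3, against 13.2% and 13.8%. The median log2 fold change, Ly49+ minus Ly49-, was -0.10 for the 30 genes and -0.04 for all genes. In bulk RNA, fewer cells of a type and less RNA per cell cannot be told apart.

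**Figure D1:**
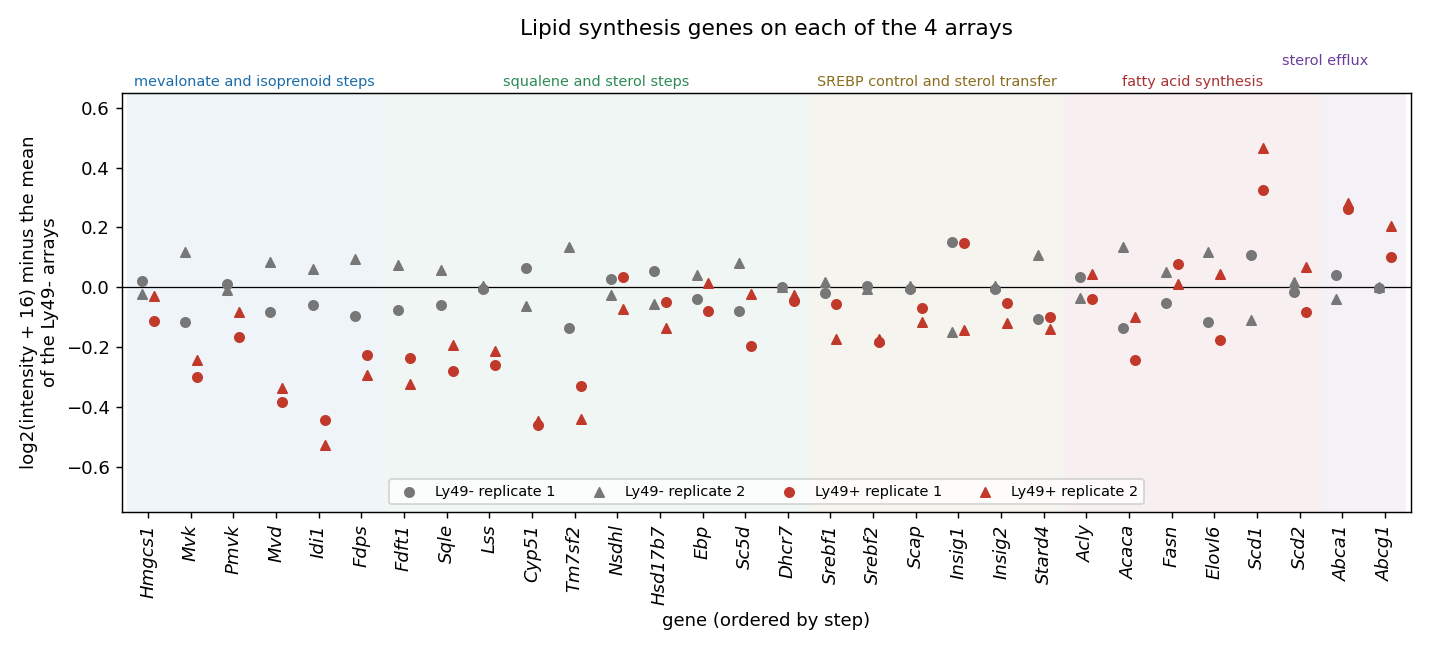
Level of each gene on each array, as log2(intensity + 16) minus the mean of the 2 Ly49- arrays (vertical axis), with genes in pathway order (horizontal axis), grey for Ly49-, red for Ly49+, circles for replicate 1 and triangles for replicate 2. Both red points lie below both grey points for Idi1, Cyp51 and Mvd and above them for Abca1, and for Insig1 the points part by replicate number.

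The mevalonate and isoprenoid enzymes carried the largest fall. Idi1 encodes the isomerase that makes the reactive isoprenoid unit dimethylallyl diphosphate. Its intensity was 1628 and 1534 on the Ly49+ arrays against 2127 and 2313 on the Ly49- arrays. Every Ly49+ array was thus below every Ly49- array, by more than the arrays of a group differed from each other. Idi1 was 1.40-fold lower in Ly49+ cells (1581 ± 65.9 against 2220 ± 132, mean ± SD, n = 2 each). The log2 fold change was -0.48 ± 0.07 (SE), with an adjusted p of 0.0062 by limma. It kept an adjusted p under the threshold on dropping Ly49+ replicate 1 (0.029) and lost it on dropping Ly49+ replicate 2 (0.063) and on dropping Ly49- replicate 1 or 2 (0.054 or 0.091).

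Mvd, the decarboxylase that acts just before Idi1, read 893 and 923 on the Ly49+ arrays against 1103 and 1240 on the Ly49- arrays. The groups did not overlap, and the mean was 1.29-fold lower in Ly49+ cells (908 ± 21.6 against 1172 ± 96.8, n = 2 each), a log2 fold change of -0.36 ± 0.08 with an adjusted p of 0.0497 by limma. This call lay at the edge of the threshold, with an adjusted p of 0.0502 when the brightest probe sets were picked by linear rather than log2 means. It was lost as well after quantile normalization (0.082), with a pseudocount of 64 (0.064), without _x_at and _s_at probe sets (0.072) and without a trend of the spread on the level (0.11). It was lost on leaving out any 1 array: dropping Ly49+ replicate 1 gave 0.26 and dropping its partner, replicate 2, gave 0.18, while dropping Ly49- replicate 1 or 2 gave 0.096 or 0.27.

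The other enzymes of this stretch did not pass. Mvk, which phosphorylates mevalonate, read 534 and 556 against 609 and 718, a log2 fold change of -0.27 (adjusted p = 0.21). Fdps, which joins isoprenoid units into farnesyl diphosphate, read 1199 and 1142 against 1314 and 1500 (-0.26, adjusted p = 0.13). Pmvk, the next kinase, differed by -0.12 (95% interval -0.27 to 0.02). Hmgcs1, which makes HMG-CoA at the head of the pathway, differed by -0.07, with an interval of -0.17 to 0.03. In all 6 of these genes both Ly49+ arrays read lower than both Ly49- arrays. The same was seen in 35.2% of all genes and 41.8% of those with a mean above 100.

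Among the squalene and sterol enzymes, Cyp51 changed most. It encodes the lanosterol demethylase. Cyp51 read 747 and 754 on the Ly49+ arrays against 1081 and 988 on the Ly49- arrays. The Ly49+ arrays were close together and both well below the others, and the mean was 1.38-fold lower (750 ± 4.76 against 1035 ± 65.2, n = 2 each), a log2 fold change of -0.45 ± 0.08 with an adjusted p of 0.018 by limma. The call was lost on dropping Ly49+ replicate 1 or 2 (adjusted p = 0.12 or 0.11) and on dropping Ly49- replicate 1 or 2 (0.13 or 0.087), and with the mean of all Cyp51 probe sets (0.095).

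Tm7sf2, a sterol reductase that acts after Cyp51, read 538 and 496 against 617 and 747 (log2 fold change -0.38 ± 0.11 SE, adjusted p = 0.10). The Ly49- arrays were apart from each other by more than the gap between the groups. Fdft1, squalene synthase, read 1152 and 1086 against 1291 and 1435 (-0.28, adjusted p = 0.098). Sqle, which oxidises squalene, and Lss, which closes the ring to lanosterol, both differed by -0.24 (adjusted p = 0.24 and 0.18). These 4 genes had no overlap between the groups and did not pass the test. Both Ly49+ arrays were likewise the lower in 35.2% of all genes and 41.8% of those with a mean above 100.

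The enzymes that finish the sterol gave values nearer to 0. Nsdhl differed by -0.02, Ebp by -0.03, Dhcr7 by -0.03, Hsd17b7 by -0.09 and Sc5d by -0.11 on the log2 scale. Their 95% intervals reached no lower than -0.31, the bound for Sc5d, and no higher than 0.14, the bound for Nsdhl. Ly49+ and Ly49- arrays overlapped in 4 of these 5, Dhcr7 being the exception at 5104 and 5178 against 5267 and 5264.

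Counted together, the 16 sterol synthesis enzymes had a median log2 fold change of -0.24, and 3 fell, none rose and 13 did not pass by limma (9 lower and 0 higher at an unadjusted p under 0.05, where 13% of all genes were lower and 5.07% higher, and 17.9% and 6.52% of those with a mean above 100). All 16 had a log2 fold change below 0, as had 65.3% of all genes and 68.4% of those with a mean above 100, and 13 of the 16 lay below the median of all genes. After quantile normalization 15 of 16 were below 0, Nsdhl moving to 0.00, and 13 were below the median. The count was also 15 of 16 with the mean of all probe sets, without _x_at and _s_at probe sets, and with any 1 array left out. The groups did not overlap in 12 of the 16, all lower in Ly49+ cells. This held for 35.2% of all genes and 41.8% of those with a mean above 100. On the same arrays, 14 of 24 measured cell cycle genes were lower and none higher, with a median of -0.38. Their summed intensities were 66421 to 69079 in Ly49+ against 80758 to 81496 in Ly49- samples. Called lower were 2.07% of all genes and 3.16% of those with a mean above 100. The part of cell cycling in the sterol values was not tested.

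**Figure D2:**
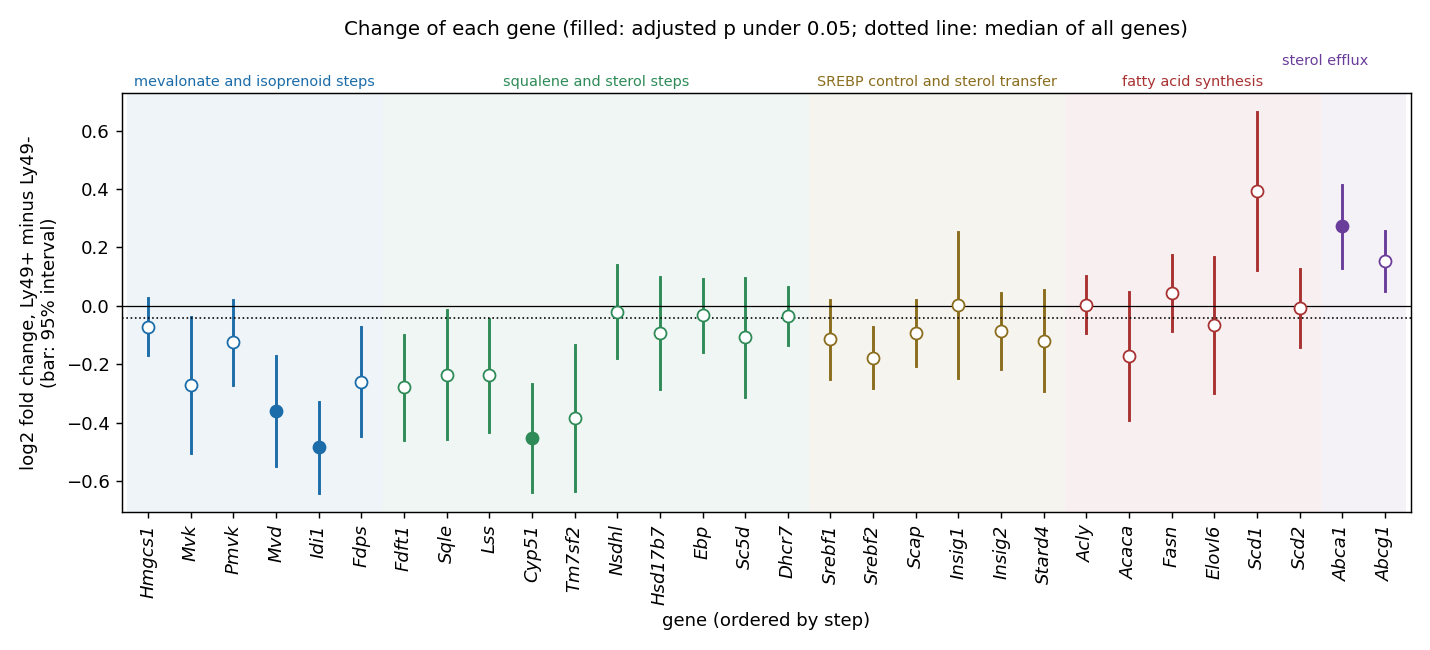
Log2 fold change, Ly49+ minus Ly49- (vertical axis), of each gene in pathway order (horizontal axis), with 95% intervals from limma as bars, filled points for an adjusted p under 0.05 and a dotted line at the median of all genes. The 16 sterol enzymes lie between -0.48 and -0.02, and the filled points are Mvd, Idi1, Cyp51 and Abca1.

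SREBP factors are known to act at promoters of sterol synthesis genes together with NF-Y and Sp1. No LXR element was searched for. Promoters of the 4 genes that passed are shown. Each is the reference sequence of the stretch just before a listed start site. The RefSeq table of start sites (build GRCm38.p6) held 23 of the 30 genes, 18 with 1 start site and 5 with several, and the 250 bases before each start were searched on both strands, a gene counting as holding a motif if any of its start sites did. The motifs were the NF-Y box CCAAT, the Sp1 box GGGCGG, the E-box CACGTG and the SREBP element core CACCCCAC. The longer SREBP consensus TCACNCCAC, in which N is any base, was added after the data were seen. The stretches lie at chr13:8885356-8885605 on the plus strand for Idi1 and, on the minus strand, at chr5:4104698-4104947 for Cyp51, chr8:122443423-122443672 for Mvd and chr4:53159896-53160145 for Abca1. Capitals mark CCAAT or its reverse complement ATTGG in the first 3, and the E-box in Abca1, each sequence ending just before the start site.
Idi1: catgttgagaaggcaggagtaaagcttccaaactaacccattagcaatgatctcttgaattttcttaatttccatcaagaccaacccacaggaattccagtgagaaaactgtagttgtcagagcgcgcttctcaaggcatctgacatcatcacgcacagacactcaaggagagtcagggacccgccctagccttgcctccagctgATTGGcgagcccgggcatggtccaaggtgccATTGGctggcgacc
Cyp51: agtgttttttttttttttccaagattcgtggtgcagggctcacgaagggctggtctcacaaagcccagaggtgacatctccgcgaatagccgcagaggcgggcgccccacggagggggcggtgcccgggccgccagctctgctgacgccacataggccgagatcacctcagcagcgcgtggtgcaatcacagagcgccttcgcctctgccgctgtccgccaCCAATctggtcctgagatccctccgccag
Mvd: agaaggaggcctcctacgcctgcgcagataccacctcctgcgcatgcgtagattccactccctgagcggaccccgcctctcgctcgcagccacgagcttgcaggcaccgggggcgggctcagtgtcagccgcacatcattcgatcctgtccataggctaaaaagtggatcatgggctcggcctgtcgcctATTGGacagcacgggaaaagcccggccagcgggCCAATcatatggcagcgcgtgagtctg
Abca1: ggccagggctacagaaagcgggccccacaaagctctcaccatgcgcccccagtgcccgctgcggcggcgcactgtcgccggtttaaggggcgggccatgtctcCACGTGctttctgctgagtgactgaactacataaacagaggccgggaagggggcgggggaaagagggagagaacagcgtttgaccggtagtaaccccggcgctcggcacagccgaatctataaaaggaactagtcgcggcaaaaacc

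A CCAAT box stood in the promoters of Idi1, Cyp51 and Mvd, and no match was found in this window of Abca1. Idi1 had boxes starting at positions -45 and -14 from the start site, Cyp51 at -29, and Mvd at -60 and -27. All 13 sterol synthesis enzymes with a listed promoter held at least 1 CCAAT box (100%), against 39.4% of 14452 measured genes and 40.1% of the 9366 with a mean intensity above 100. Over all 23 genes the share was 78.3% (18 genes). Acly, Acaca, Elovl6, Scap and Abca1 were those without a match.

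The Sp1 box was found in 12 of the 13 sterol enzymes, 92.3% against 62.6% of the measured genes with a mean intensity above 100. The SREBP element core was found in Hmgcs1 alone, 1 of 23 genes (4.35%) against 3.37% of measured genes. The longer consensus also matched in Hmgcs1 alone, over the same bases (1.27% of measured genes). SREBP sites that differ from these strings were not searched for, so the other promoters were not shown to lack one. E-boxes stood in 6 of the 23 (26.1% against 8.73%). In Fasn, CCAAT boxes on opposite strands at -62 and -59 overlapped. A match is a description of the sequence and not a shown binding site.

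**Figure D3:**
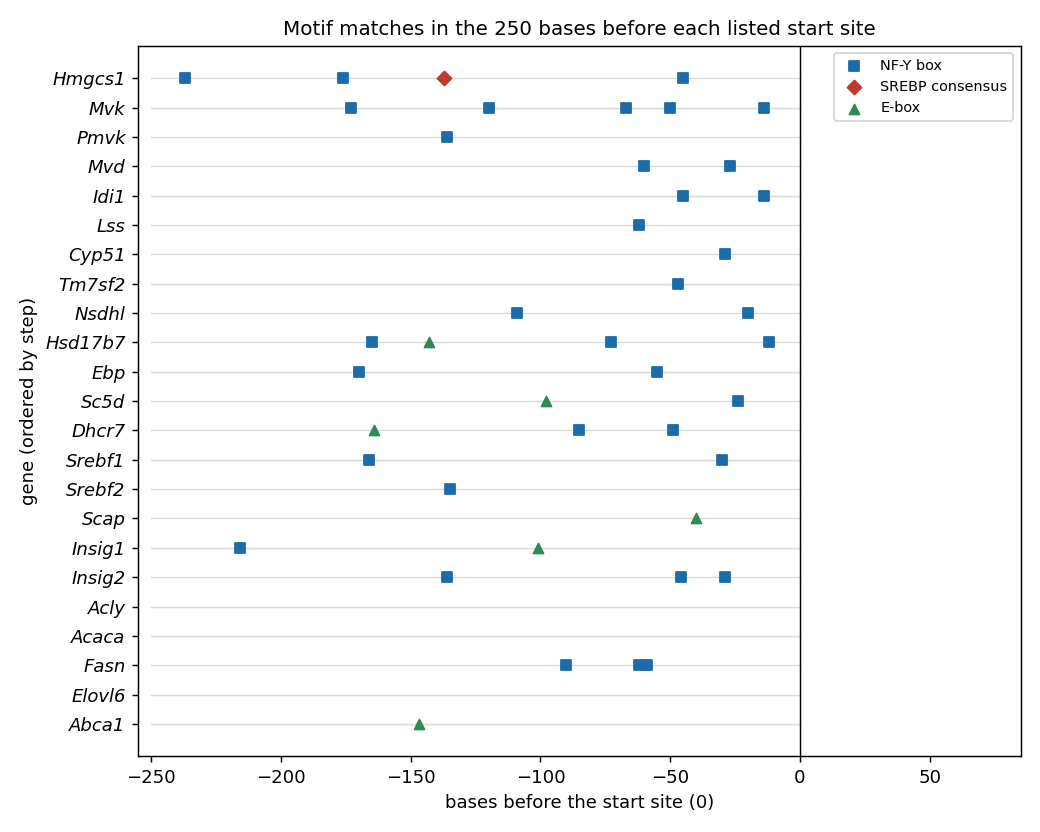
Matches of the NF-Y box (blue squares), the SREBP consensus (red diamond) and the E-box (green triangles) by distance in bases before the start site (horizontal axis), with all listed start sites of a gene on 1 line and genes in pathway order (vertical axis). Every sterol enzyme shown has at least 1 blue square, and Acly, Acaca and Elovl6 have no mark.

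None of the 6 genes of SREBP control and sterol transfer passed by limma (1 at an unadjusted p under 0.05). Srebf2, the SREBP that chiefly drives sterol genes, read 3882 and 3911 in Ly49+ samples against 4423 and 4394 in Ly49- samples. The arrays of each group nearly coincided, and the log2 fold change was -0.18 ± 0.05 SE (adjusted p = 0.078). Srebf1, which chiefly drives fatty acid genes, differed by -0.11 (2715 and 2499 against 2787 and 2859), and Scap by -0.09. Insig2 differed by -0.09 and Stard4, a carrier of sterol between membranes, by -0.12. The 95% intervals of these 4 genes spanned 0, and that of Srebf2 ran from -0.28 to -0.07.

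Insig1, itself a target of the SREBP factors, parted by replicate number and not by group. It read 5024 on Ly49+ and 5032 on Ly49- replicate 1, and 4106 on Ly49+ and 4085 on Ly49- replicate 2. The group means were 4565 ± 649 and 4559 ± 670 (n = 2 each), a log2 fold change of 0.00 with a 95% interval of -0.25 to 0.25. The labels do not say what arrays of a number share.

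Fatty acid synthesis genes did not pass in either direction by limma, with 1 of 6 at an unadjusted p under 0.05 and a median of -0.00. Acly, which supplies cytosolic acetyl-CoA, read 12374 and 13109 against 13017 and 12398 (95% interval of the log2 fold change -0.09 to 0.10). Fasn, the fatty acid synthase, read 3270 and 3125 against 2989 and 3217 (interval -0.09 to 0.18). Acaca, which makes malonyl-CoA, differed by -0.17 (interval -0.39 to 0.05), and Elovl6, which lengthens palmitate, by -0.07 (-0.30 to 0.17). In all of these the groups overlapped.

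The desaturases Scd1 and Scd2 introduce the double bond of oleate. Scd1 read 319 and 353 in Ly49+ samples against 272 and 232 in Ly49- samples, with no overlap and a log2 fold change of 0.39 ± 0.12 SE, and did not pass (adjusted p = 0.12). Scd2 read 4056 and 4506 against 4249 and 4345, and its interval was -0.14 to 0.13. The difference between these desaturases was not tested.

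The chosen probe sets of both efflux pumps read higher on the Ly49+ arrays. Abca1 hands cholesterol to lipid-poor apolipoproteins. It read 1969 and 1996 on the Ly49+ arrays against 1685 and 1594 on the Ly49- arrays. The groups did not overlap, and the mean was 1.21-fold higher in Ly49+ cells (1983 ± 19.4 against 1640 ± 64.4, n = 2 each), a log2 fold change of 0.27 ± 0.06 with an adjusted p of 0.049 by limma. The call was lost on dropping Ly49+ replicate 1 or 2 (adjusted p = 0.24 or 0.27) and on dropping Ly49- replicate 1 or 2 (0.12 or 0.24). It was lost as well with the mean of all Abca1 probe sets, where the log2 fold change was 0.18 (0.33), and with a pseudocount of 1 (0.0502) or 64 (0.053). The adjusted p was 0.052 without _x_at and _s_at probe sets and 0.12 without a trend of the spread. A further Abca1 probe set above background read 106 and 104 against 84 and 92 (log2 fold change 0.22). The third was at background (0.04).

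Abcg1, which moves cholesterol to lipoprotein particles, read 8507 and 9143 against 7917 and 7945 (log2 fold change 0.15 ± 0.05 SE, adjusted p = 0.11). A further Abcg1 probe set above background read 724 and 676 against 737 and 739 (-0.08), and the mean of all Abcg1 probe sets gave 0.04. Macrophage and monocyte markers rose on the same arrays, and macrophages express both pumps and Scd1. Of 16 markers, 13 were higher and none lower, where 1.93% of all genes were higher and 2.07% lower. Their median was 0.65, and summed intensities were 24715 to 27907 on the Ly49+ against 16304 to 16338 on the Ly49- arrays. Lyz2 read 1129 and 1051 against 502 and 477, Spic 1029 and 1211 against 423 and 495, and Itgam was at background in both groups. B-cell markers had sums of 5016 to 5273 against 4229 to 4246, with 1 of 7 higher and 1 lower and Pax5 at background. NK-cell markers had 3 of 5 higher, with Ncr1 at background, and sums of 33628 to 34063 against 29202 to 29870. Of 5 dendritic cell markers 1 was higher, with sums of 2573 to 2731 against 2421 to 2561, and none of 2 CD4 T-cell and 3 erythroid markers passed by limma (0 at an unadjusted p under 0.05). The part of these cells in the values of Abca1, Abcg1 and Scd1 was not tested.

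Further probe sets were present for 21 of the 30 genes, and the only ones of Fdps and Scd1 were at background. Of 40 further probe sets, 31 lay above background, and 20 of these had the sign of the chosen one and 11 the opposite sign. For Idi1 the second probe set gave -0.41 (597 and 543 against 774 and 749), for Mvd -0.38 (406 and 405 against 513 and 551), and for Fdft1 -0.36. The 2 further probe sets of Cyp51 gave -0.50 and -0.01, the latter at 103 to 128 on the arrays. With each of 45037 probe sets tested on its own, 1 of the 70 probe sets of these genes passed, that of Idi1 (adjusted p = 0.035), a share near the 1.19% of all probe sets.

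Hsd17b7, Elovl6, Scap and Acaca were among the genes read differently by their probe sets. The chosen Hsd17b7 probe set, of the _x_at kind that may detect other transcripts, gave -0.09, while another gave 0.53 at 401 and 389 on the Ly49+ against 267 and 270 on the Ly49- arrays. That probe set was called higher when _x_at and _s_at probe sets were left out (adjusted p = 0.024) and not when probe sets were tested singly (0.074). For Elovl6 a probe set of 215 and 224 against 147 and 140 gave 0.56 (adjusted p = 0.079 on its own), against -0.07 for the chosen one. A Scap probe set of 496 and 553 against 413 and 448 gave 0.27 (0.33), against -0.09 for the chosen one. For Acaca a probe set of 245 and 273 against 225 and 222 gave 0.20 (0.50), against -0.17. Which transcripts these probe sets read was not tested.

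**Figure D4:**
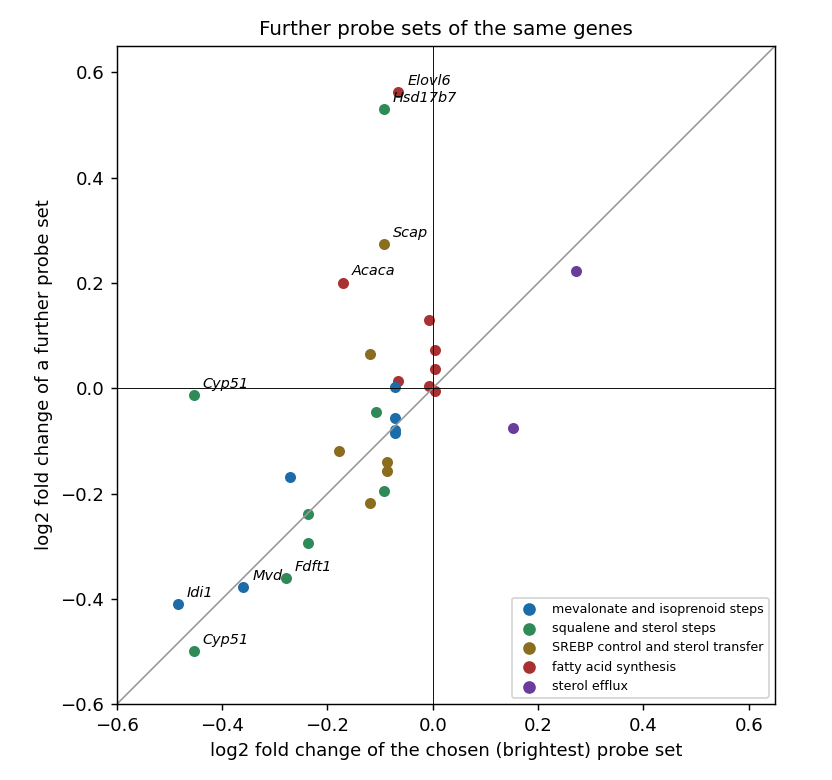
Log2 fold change of further probe sets above background (vertical axis) against that of the chosen probe set of the same gene (horizontal axis), coloured by pathway step, with the line of equality in grey. Idi1, Mvd, Fdft1 and 1 Cyp51 probe set lie near the line in the lower left, and Hsd17b7 and Elovl6 each have a probe set at 0.53 and 0.56 far above it.

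Among other genes of the pathway, 1 further sterol gene was called lower in Ly49+ cells. Their lists were chosen by function, with earlier results of these data known. Tmem97, an endoplasmic reticulum protein that binds the sterol transporter NPC1, read 601 and 644 against 796 and 887 (log2 fold change -0.43 ± 0.09 SE, adjusted p = 0.039), a call lost without any 1 array (0.24 or 0.12 on dropping Ly49+ replicate 1 or 2, and 0.11 or 0.25 on dropping Ly49- replicate 1 or 2). Of the 11 measured genes of sterol synthesis and trafficking outside the first list, this was the 1 that passed and 10 did not. Their median was -0.11. Over all genes 2.07% were called lower, and 3.16% of those with a mean intensity above 100. Ggps1, which makes geranylgeranyl diphosphate, differed by -0.18 (adjusted p = 0.10), and Npc2, a lysosomal sterol carrier, by -0.08 (0.26). None of the 6 genes that process or degrade the SREBP system passed by limma (0 at an unadjusted p under 0.05), with a median of 0.01.

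Of 23 other genes of fatty acid synthesis, elongation, desaturation and activation, none passed by limma (3 lower and 0 higher at an unadjusted p under 0.05), and the median was -0.05. At that unadjusted p 13% of all genes were lower and 5.07% higher. Of those with a mean intensity above 100, 17.9% were lower and 6.52% higher. Fads1, a desaturase of polyunsaturated fatty acids, read 407 and 424 against 526 and 568 (log2 fold change -0.38, adjusted p = 0.067). Acacb, the mitochondrial acetyl-CoA carboxylase, read 205 and 244 against 316 and 301 (-0.44, adjusted p = 0.088). Acss2, which makes acetyl-CoA from acetate, differed by -0.15 (0.22).

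Of 9 LXR receptors and other LXR targets, 1 fell and none rose by limma (1 lower and 1 higher at an unadjusted p under 0.05). Over all genes 2.07% were called lower and 1.93% higher, and at the unadjusted p 13% were lower and 5.07% higher. The gene that fell was Abcc1, a multidrug exporter, at 2448 and 2342 against 2847 and 2846 (log2 fold change -0.25 ± 0.05 SE, adjusted p = 0.043). That call was lost after quantile normalization (0.091), with the mean of all Abcc1 probe sets (0.054) and without a trend of the spread (0.13). It was lost as well without any 1 array, where the log2 fold change ran from -0.28 to -0.22. Mylip, an LXR-induced ubiquitin ligase, read 2638 and 2838 against 2499 and 2415 (0.15, adjusted p = 0.21), and Nr1h3, which encodes LXR alpha, differed by 0.19 with overlapping groups. None of 16 fatty acid oxidation genes passed by limma (3 lower and 0 higher at an unadjusted p under 0.05), with a median of -0.06 and values between -0.16 and 0.11. At that unadjusted p 13% of all genes were lower, and 17.9% of those with a mean intensity above 100.

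**Figure D5:**
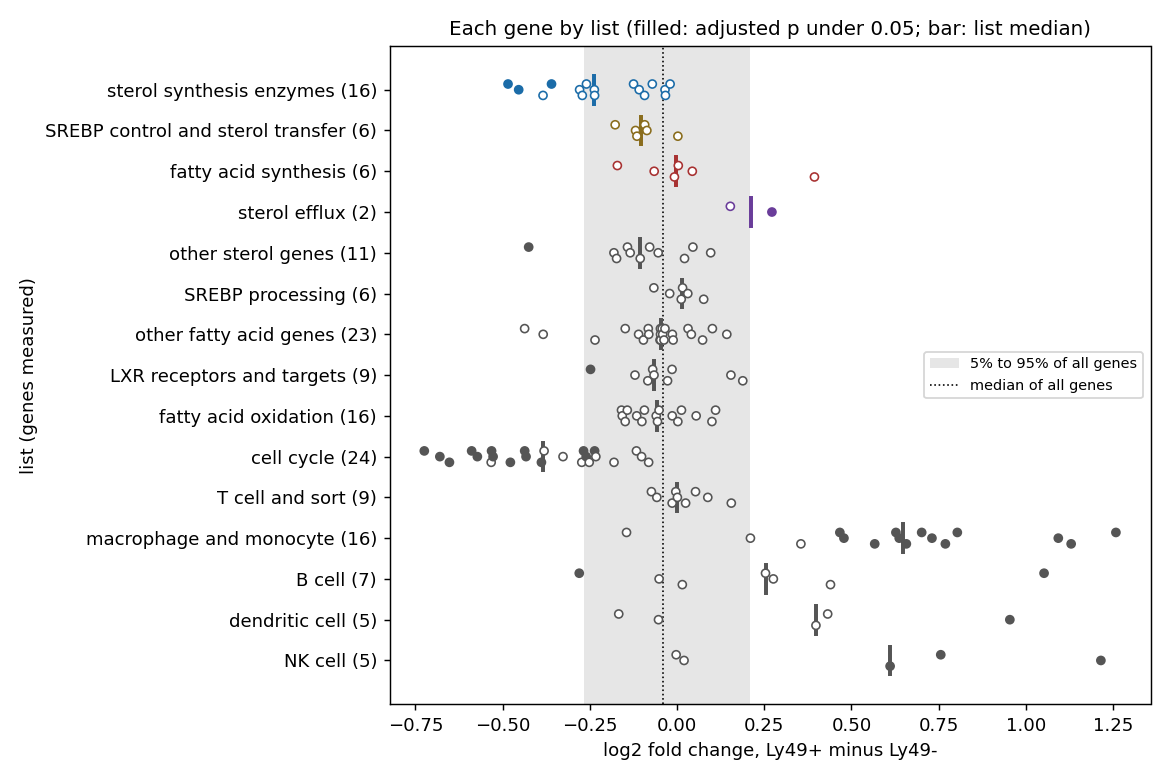
Log2 fold change, Ly49+ minus Ly49- (horizontal axis), of each measured gene by list (vertical axis, number of genes in brackets), with filled points for an adjusted p under 0.05, bars at list medians, a grey band from the 5% to the 95% quantile of all genes and a dotted line at their median. Sterol synthesis enzymes have a median of -0.24 and cell cycle genes one of -0.38, while macrophage markers have one of 0.65.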

How the data were processed

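Sorted CD8 T-cell RNA was measured on 4 Affymetrix mouse arrays, 2 per group, with groups and replicate numbers from the sample titles. The authors deposited a linear intensity for each probe set (8.32 to 43959). Array medians nearly coincided as deposited, and their scaling method was not given in the sources used here. Gene names came from the platform annotation: 34945 of 45101 had 1 symbol, 932 several, 9160 none listed, and 64 were controls. Each of 18193 genes was read by its probe set of highest mean log2(intensity + 16). Differences were tested on that scale with limma 3.58.1 in R 4.3.3 (lmFit, eBayes with a trend, a term for group alone, residual degrees of freedom 2 and prior 6.70), adjusted by Benjamini-Hochberg over all genes, with a threshold of 0.05. An exact permutation test of 2 against 2 arrays cannot give a two-sided p below 0.333. A pseudocount of 16 shrinks changes of dim genes. The number of arrays limits the precision. The fit was tested on simulated data. Means under 65.4, the highest mean of 27 Bacillus subtilis control probe sets, were called background. Full statistics were given for genes that passed or differed by at least 0.3, and of the other lists for genes that passed or up to 3 with the smallest p. Members and lists were chosen with earlier results of these data known. Alternatives covered scaling, pseudocounts of 1 and 64, a dim limit of 100, the choice of probe sets, the model of the spread, a replicate block and leaving out each array.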

Additional observations from a re-analysis of the deposited data

How the results depend on the processing

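The median of the 30 genes stayed below 0 under every alternative run, between -0.12 and -0.06, while the calls did not hold. The median of all genes tested was below 0 in each run as well, between -0.052 and -0.026. With the mean over each gene's probe sets it was -0.058 for the 30 genes and -0.035 for all genes. The count of genes called higher (1, Abca1) became 0 with a pseudocount of 1 or 64, with the mean over each gene's probe sets and without a trend of the spread (3, 3, 1 and 2 genes higher at an unadjusted p under 0.05). Without _x_at and _s_at probe sets it stayed 1, but the gene was Hsd17b7 and Abca1 missed the threshold (0.052). The count called lower (3) was 2 after quantile normalization, with a pseudocount of 64, without _x_at and _s_at probe sets, without a trend and with linear means, each time losing Mvd, and 2 with the mean of all probe sets, losing Cyp51. Without 1 array, 0 were called higher in each of the 4 fits (1 to 3 at an unadjusted p under 0.05) and 0 to 1 lower (4 to 11); the array left alone is taken to vary as the other group does. Without Ly49- replicate 1, whose spike-in stood apart, the median was -0.12. Arrays with the same number deviated together (correlation 0.24 over genes), but with 2 pairs and no label on what they share the numbers were not taken as pairs; with a replicate block 2 genes were called higher and 7 lower, and 1527 of all genes against 728.

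Changes of sign were seen among genes that did not pass. After quantile normalization Nsdhl was at 0.00075 and Scd2 at 0.021. With the mean of all probe sets Acaca was at 0.015, Elovl6 at 0.17, Hsd17b7 at 0.066, Scap at 0.091 and Scd2 at 0.042, and with no _x_at or _s_at probe sets Acly was at -0.0061 and Hsd17b7 at 0.53. Without 1 array, the values ran from -0.038 to 0.045 for Acly, -0.079 to 0.013 for Ebp, -0.18 to 0.051 for Elovl6, -0.0088 to 0.10 for Fasn, -0.15 to 0.15 for Insig1, -0.074 to 0.034 for Nsdhl and -0.083 to 0.068 for Scd2. The cause was not tested. With the dim limit of 100 and with a robust spread no call changed. Choosing probe sets by linear means was added after the data were seen, and changed the call of Mvd alone among these 30 genes.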
